A study of Homo sapiens with 18 samples.

Results

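The insulin-like growth factor (IGF) axis was described across 3 lines of K562 cells, a human erythroleukemia cell line. It comprised 10 genes chosen by symbol, of 28395 genes in the RNA-seq tables: the ligands IGF1 and IGF2, the receptors IGF1R, IGF2R and INSR, and the binding proteins IGFBP2, IGFBP3, IGFBP4, IGFBP5 and IGFBP6. All 10 were listed in both tables, and 61 of 85549 regions of open chromatin lay within 5 kb of them. V-K562 cells were the control, B-K562 cells carried wild-type BASP1 (wtBASP1), and in G-K562 cells the protein was BASP1-G2A, a mutant that cannot be myristoylated at its N-terminus. BASP1 is a transcriptional corepressor that acts with the Wilms' tumor protein WT1 and other transcription factors. The comparisons address how gene expression and chromatin accessibility change with wtBASP1 and whether the lipid anchor is needed. Both RNA-seq and ATAC-seq libraries came from 3 replicate cultures of every line. The stably transfected lines were grown in G-418, and cells for ATAC-seq were given DNase before harvest. Each form of BASP1 was represented by a single line, so BASP1 and other differences between the lines cannot be told apart.

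IGF1 and IGF2 are secreted peptides that activate the receptor tyrosine kinase IGF1R, and through it PI3K, AKT and mTOR. INSR is the insulin receptor, which forms hybrids with IGF1R, and IGF2R carries IGF2 to the lysosome without signaling through a kinase. The IGFBP proteins bind both ligands outside the cell, and proteases such as PAPPA release the ligand by cutting them. IGF1R and IGF2 have been described as targets of WT1.

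The RNA-seq values are read counts per gene that the authors divided by a size factor for each library and rounded, in a table of V-K562 with B-K562 cells and another of V-K562 with G-K562 cells. Their totals of 32342190 to 33229588 per library are set by this scaling and do not show depth. A gene was tested where its value was at least 10 in at least 3 libraries, with limma-trend on log2(value + 1) across all genes and Benjamini-Hochberg adjustment. It was called higher or lower at an adjusted p of at most 0.05. Fold changes on this scale understate the change of genes with low values. BASP1 itself was at 5 to 7 in the V-K562 libraries, 6189 to 6849 in the B-K562 libraries and 8124 to 12538 in the G-K562 libraries. WT1 also rose in G-K562 cells (log2 fold change 1.37 against V-K562, standard error 0.07, adjusted p = 1.8e-08, limma-trend). All 8 markers of K562 cells were present in every library, with a summed value of 207855 to 211502 in B-K562 cells, 125427 to 140589 in V-K562 cells and 68747 to 74412 in G-K562 cells. Among them TFRC alone was higher in G-K562 than V-K562 cells, at 28864 to 35087 against 20453 to 22731. Markers of other cell types also moved with the lines. The monocyte markers CD14 and LYZ summed to 3792 to 4319 in G-K562 cells, against 1336 to 1382 in V-K562 and 1305 to 1446 in B-K562 cells, with CD14 at 12 to 23.4 in all libraries. The epithelial markers EPCAM, KRT8 and KRT18 had sums of 31868 to 33440 (V-K562), lower ones of 21746 to 22093 (B-K562) and higher ones of 39305 to 40590 (G-K562). The T cell markers CD3D and CD3E summed to 425 to 585 in V-K562 cells and 182 to 255 in the BASP1 lines. The part of these in the differences of IGF1 and IGFBP4 was not tested.

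Certain libraries stood apart in genes of the axis. A gene was counted as apart where its value in a library was at least 10 and at least 4-fold above the value plus 1 of both other libraries of the line. This held for 75 genes in replicate 1 of B-K562 cells, among them IGF2, IGFBP2 and IGFBP3, and for 74 genes in replicate 1 of V-K562 cells, among them IGFBP3. No more than 4 genes met it in any other library, and 2 genes met it in both. Replicate 1 of B-K562 cells also had 62.0 for LUM and 65.1 for DCN, markers of stromal cells, against at most 3.05 and 16.3 in its other libraries. The 5 stromal markers together summed to 1262 there, within the range of 908 to 1770 over the other 8 libraries, with COL1A1 and COL1A2 expressed throughout and PDGFRA at 2.03 or less in each. COL3A1, another stromal collagen and not on the marker list, was at 585 there, at 4.07 and 2.03 in replicates 2 and 3, and at 55 to 146 in the other lines. The part of other cells in the values of this library was not tested, and results that rest on it are given with and without it. In bulk RNA, a change in the number of cells of a type cannot be told apart from a change in RNA per cell.

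Of the 10 genes, 8 passed the filter in each comparison, and IGF2 and IGFBP3 did not. With wtBASP1, relative to V-K562 cells, IGF1, INSR and IGFBP4 fell and IGF1R, IGF2R and IGFBP5 rose, while IGFBP2 and IGFBP6 did not pass the test. Over all 14958 genes tested in this comparison 37.2% were lower and 38.6% were higher, so 3 lower and 3 higher of 8 stood near the background. With BASP1-G2A, relative to V-K562 cells, IGF1, IGF1R, IGF2R, IGFBP4 and IGFBP5 rose, INSR and IGFBP2 fell, and IGFBP6 did not pass the test. The background in that comparison was 33.3% lower and 33.5% higher of 15271 genes. Between the BASP1 lines, IGF1, IGF2R, INSR and IGFBP4 were higher in G-K562 cells and 0 genes of the axis were lower by limma-trend, also at an unadjusted p under 0.05, against 38.1% higher and 40.5% lower of 15521 genes. The calls of at least 2-fold were 4 of 8 genes in B-K562 cells (IGF1, INSR and IGFBP4 lower, IGFBP5 higher), 3 of 8 in G-K562 cells (IGF1 and IGFBP5 higher, IGFBP2 lower) and 2 of 8 between the BASP1 lines (IGF1 and IGFBP4, higher in G-K562 cells). Such calls made up 20.6%, 19.1% and 29.9% of all genes tested. In G-K562 against V-K562 cells IGFBP2 passed the filter only through the V-K562 libraries, where it was high. Its place in the counts of that comparison is therefore a description only. Where at least 10 was required in every library, 1 gene of the axis was lower in G-K562 than V-K562 cells. Over the 8 genes the log2 fold changes had medians of -0.82 in B-K562 cells, 0.39 in G-K562 cells and 0.42 between the BASP1 lines, with medians over all genes of 0.01, 0.00 and -0.02. The comparisons of both BASP1 lines share the V-K562 libraries.

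**Figure D1:**
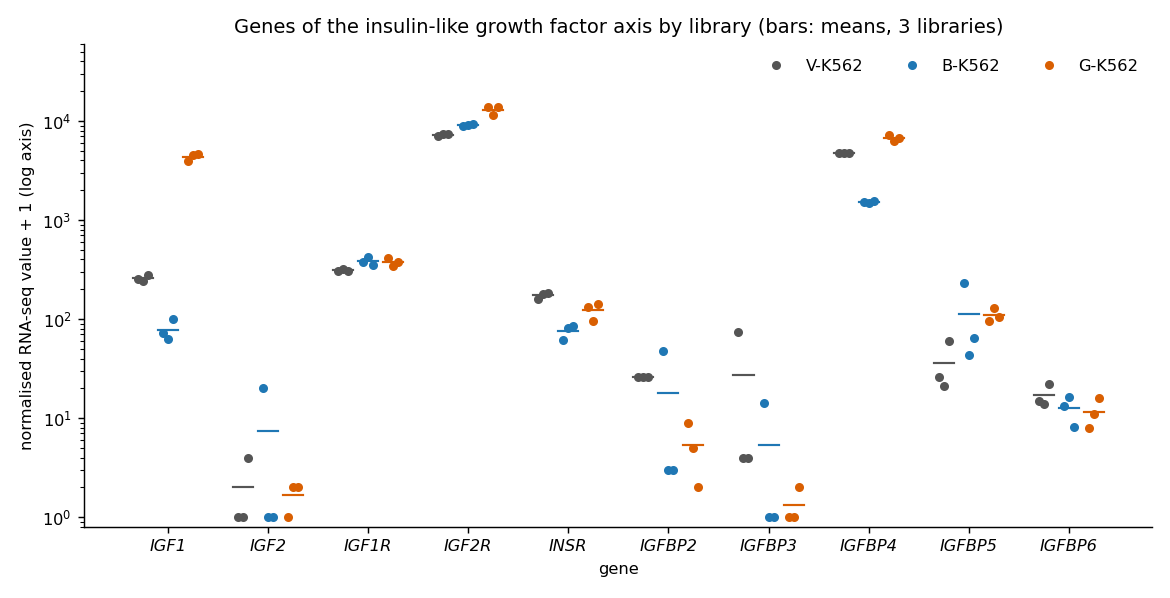
Normalised RNA-seq value plus 1 (log axis) of the 10 genes in each of the 9 libraries, with horizontal bars at the mean of 3 libraries; B-K562 values are multiplied by 1.017 to put both tables on a common scale. The 3 G-K562 libraries of IGF1 sit between 3976 and 4599, above all V-K562 and B-K562 libraries, and single libraries set the means of IGF2 and IGFBP3 and that of IGFBP2 in B-K562 cells.

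IGF1 (Entrez 3479, chr12:102395867-102480600, minus strand, GRCh38) encodes a circulating growth factor of the axis. Its normalised values were 252, 236 and 271 in the V-K562 libraries and 70, 61 and 97 in the B-K562 libraries of the same table. The other table gave 256, 239 and 277 in V-K562 cells and 3976, 4535 and 4599 in G-K562 cells. The lines did not overlap in any comparison, with B-K562 cells lowest and G-K562 cells highest. The mean was 3.33-fold lower in B-K562 cells (76.0 ± 18.7 against 253 ± 17.5, SD, n = 3 libraries each) and 17.0-fold higher in G-K562 cells (4370 ± 342.7 against 257.3 ± 19.04, SD, n = 3 each). In log2 units IGF1 fell by 1.75 in B-K562 cells (standard error 0.15, adjusted p = 1.8e-07, limma-trend) and rose by 4.08 in G-K562 cells (standard error 0.08, adjusted p = 6.3e-11). The BASP1 lines differed by 5.83 (standard error 0.13, adjusted p = 1.1e-13).

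The IGF1 gene held 6 ATAC-seq regions, none of them with a called peak in all 9 libraries. The value of a region is its highest summit pileup, the number of tags at the top of the peak, in libraries that the authors had sampled to equal numbers of tags. Where no peak was called there is no value, and the test then used a floor of 17 tags, so there the size of a change is set by the floor and bounds nothing. Values below 17 tags were raised to the floor too. Values at the floor have no spread, so a p-value that rests on them does not measure a spread between those libraries. The regions at 39.3 and 6.0 kb from the start, both in introns, were lower in B-K562 than V-K562 cells. Their sequences are shown because accessibility there differed between the lines, each as the 300 bases around the highest summit, on the plus strand of GRCh38. Capitals mark AGATAA or TGATAA, which GATA factors bind, and TGANTCA, which AP-1 binds, on either strand. These motifs were chosen after the data were seen. AGATAA and TGATAA can overlap each other.

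IGF1 intron, 39.3 kb from the start (chr12:102441163-102441462): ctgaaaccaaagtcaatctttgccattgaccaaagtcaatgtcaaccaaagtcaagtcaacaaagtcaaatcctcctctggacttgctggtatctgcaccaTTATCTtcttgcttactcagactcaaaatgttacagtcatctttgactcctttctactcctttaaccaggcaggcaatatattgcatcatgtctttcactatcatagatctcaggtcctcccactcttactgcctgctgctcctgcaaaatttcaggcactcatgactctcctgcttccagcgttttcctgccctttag
IGF1 intron, 6.0 kb from the start (chr12:102474475-102474774): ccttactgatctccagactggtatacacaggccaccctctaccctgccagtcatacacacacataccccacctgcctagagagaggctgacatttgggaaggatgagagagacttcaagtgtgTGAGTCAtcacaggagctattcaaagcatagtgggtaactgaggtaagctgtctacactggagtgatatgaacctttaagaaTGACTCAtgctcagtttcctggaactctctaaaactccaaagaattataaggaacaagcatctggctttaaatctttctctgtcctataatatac

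The region at 39.3 kb (chr12:102441108-102441560) had summits of 67, 71 and 66 tags in the V-K562 libraries and of 74, 65 and 76 in the G-K562 libraries. In B-K562 cells replicates 1 and 3 had 25 and 15 tags and replicate 2 had no called peak. The V-K562 and G-K562 libraries overlapped, and every B-K562 value was lower. By log2 fold change it was -1.87 in B-K562 cells (standard error 0.21, adjusted p = 0.0019, limma-trend) and 1.64 between the BASP1 lines (standard error 0.18, adjusted p = 0.00012). For G-K562 against V-K562 it was -0.27 (adjusted p = 0.11), and its sign depended on the scaling, at 0.07 without scaling.

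The region at 6.0 kb (chr12:102474420-102474815) was highest in G-K562 cells, at 86, 83 and 70 tags, against 45, 42 and 29 in V-K562 cells. In B-K562 cells it had 23 and 16 tags in replicates 2 and 3 and no called peak in replicate 1. The log2 fold changes were -1.07 for B-K562 (standard error 0.23, adjusted p = 0.013) and 0.70 for G-K562 cells (standard error 0.21, adjusted p = 0.030), each against V-K562 cells by limma-trend. The BASP1 lines differed by 1.82 (standard error 0.23, adjusted p = 0.00028). Without replicate 1 of B-K562 cells the adjusted p of the first was 0.057, and without replicate 3 it was 0.058. The call in G-K562 against V-K562 cells was lost with any of 4 libraries left out, replicates 1 and 2 of G-K562 and replicates 2 and 3 of V-K562 cells, with adjusted p-values of 0.0597 to 0.101.

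Distances in IGF1 run from the deposited start, chr12:102480600. The RefSeq promoters of IGF1 lie elsewhere (chr12:102481748-102481997 and chr12:102478551-102478800 before their starts), and no peak was called over either. At the deposited start (chr12:102480418-102480746) peaks of 30 and 39 tags were called in replicates 1 and 2 of V-K562 cells and in no other library. At 2.9 kb before the deposited start, peaks of 21 and 28 tags were called in replicates 1 and 3 of G-K562 cells alone. Neither of these had enough peaks to be tested. A region 50.7 kb into the gene had peaks in replicates 1 and 3 of V-K562 cells and in replicate 3 of G-K562 cells. TGANTCA occurred 2 times in the window at 6.0 kb and AGATAA 1 time in that at 39.3 kb. Of all 85549 windows of this length, 20.1% held TGANTCA, 23.4% AGATAA and 15.0% TGATAA.

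**Figure D2:**
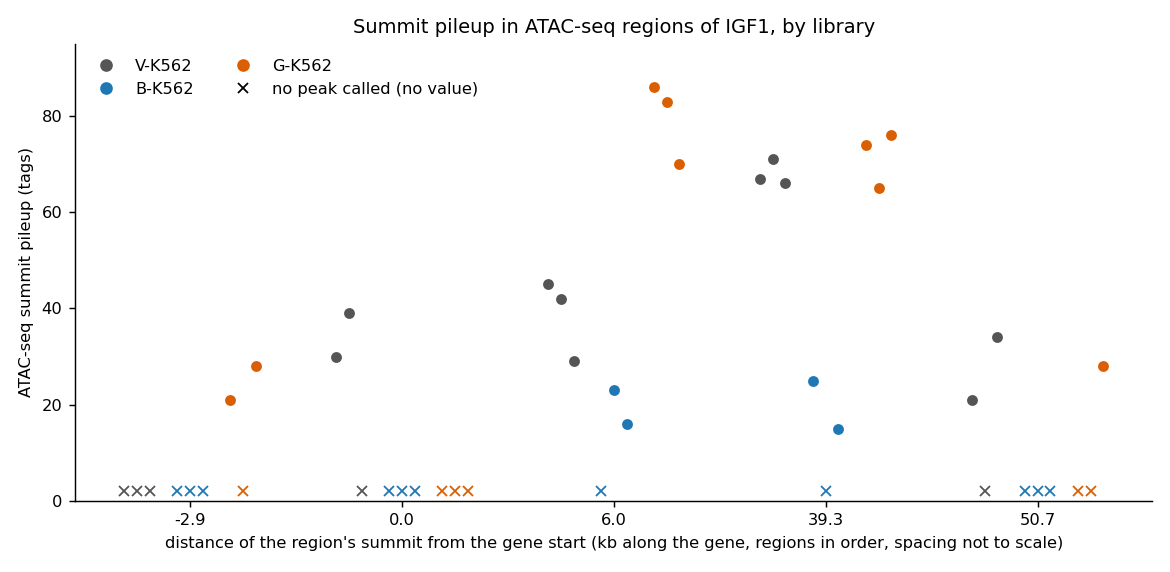
Summit pileup in tags of each library in ATAC-seq regions of IGF1, ordered by the distance of the summit from the gene start in kb, with crosses for libraries without a called peak. B-K562 libraries have the lowest values or no peak in every region shown, and at 6.0 kb the G-K562 libraries, at 70 to 86 tags, are above the V-K562 libraries.

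IGF2 (Entrez 3481, chr11:2129112-2149603, minus strand), the other growth factor of the axis, was at or near 0 in most libraries. Its values were 0, 0 and 3 in V-K562 cells, 19, 0 and 0 in B-K562 cells and 0, 1 and 1 in G-K562 cells. The value of 19 was in replicate 1 of B-K562 cells, the library that stood apart. IGF2 was not tested, and no difference was detectable at these values. Exons of INS-IGF2, a readthrough gene on the same strand, covered 76.1% of its exon length, so reads there may not have been assigned to either gene, and INS-IGF2 was at 0 in all libraries. The single region at IGF2 had a peak of 17 tags in replicate 2 of V-K562 cells and in no other library.

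IGF1R (Entrez 3480, chr15:98648539-98964530, plus strand), the kinase receptor of both ligands, differed little between the lines. Its values were 299, 315 and 301 in V-K562 cells and 368, 412 and 348 in B-K562 cells. In the other table they were 304, 320 and 308 in V-K562 cells and 416, 340 and 375 in G-K562 cells. Both BASP1 lines were above all V-K562 libraries, and overlapped each other. The log2 fold changes were 0.30 in B-K562 (standard error 0.08, adjusted p = 0.0055, limma-trend), 0.27 in G-K562 cells (standard error 0.10, adjusted p = 0.025) and -0.02 between the BASP1 lines (standard error 0.09, adjusted p = 0.84). The call in G-K562 cells was lost without any of 4 libraries, replicates 1 and 3 of each line, at adjusted p-values of 0.0515 to 0.121. IRAIN, a gene on the opposite strand, overlaps 9.0% of the exon length of IGF1R. The library kit keeps the strand, and the counting setting is not given in the sources used here.

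IGF1R held 17 regions, of which 2 had peaks in all libraries. The region at its start (chr15:98648249-98648792) had summits of 23, 32 and 21 tags in V-K562 cells, 40, 66 and 39 in B-K562 cells and 41, 52 and 58 in G-K562 cells. Every value of the BASP1 lines was above those of V-K562 cells, but the region did not pass the test, with log2 fold changes of 0.74 (adjusted p = 0.085) and 0.64 (adjusted p = 0.056). Both passed without scaling between libraries, with adjusted p-values of 0.049 and 0.010, and scaling within bins of GC content gave 0.44 (adjusted p = 0.30) and 0.22 (adjusted p = 0.45). A region in an intron, 128.5 kb from the start (chr15:98776864-98777306), was higher in B-K562 cells alone. It had 25, 28 and 19 tags in V-K562 cells, 68, 64 and 60 in B-K562 cells, and 29 and 35 in replicates 1 and 2 of G-K562 cells, with no peak called in replicate 3. The log2 difference was 1.25 in B-K562 against V-K562 cells (standard error 0.21, adjusted p = 0.0056) and -1.40 in G-K562 against B-K562 cells (standard error 0.24, adjusted p = 0.0021), and kept its call under every alternative run. Its window is shown as the region of IGF1R that differed most. None of the 3 motifs searched in IGF1 occurred in it, so it has no capitals.

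IGF1R intron, 128.5 kb from the start (chr15:98776939-98777238, plus strand, GRCh38): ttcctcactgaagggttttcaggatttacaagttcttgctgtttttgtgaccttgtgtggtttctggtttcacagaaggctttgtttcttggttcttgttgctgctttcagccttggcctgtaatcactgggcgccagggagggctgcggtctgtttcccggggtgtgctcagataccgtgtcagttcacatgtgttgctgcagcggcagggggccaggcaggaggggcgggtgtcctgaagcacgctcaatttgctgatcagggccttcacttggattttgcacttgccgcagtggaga

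IGF2R (Entrez 3482, chr6:159969099-160106551, plus strand), the scavenger receptor of IGF2, rose in both BASP1 lines. Its values were 6935, 7276 and 7279 in V-K562 cells and 8759, 8912 and 9245 in B-K562 cells. The other table gave 7041, 7388 and 7427 in V-K562 cells and 13910, 11411 and 13756 in G-K562 cells. The lines did not overlap, with G-K562 cells highest. The log2 fold changes were 0.32 in B-K562 (standard error 0.04, adjusted p = 1.7e-05), 0.83 in G-K562 cells (standard error 0.08, adjusted p = 1.9e-06) and 0.51 between the BASP1 lines (standard error 0.07, adjusted p = 6.3e-06, all limma-trend). Its 14 regions included 5 with a peak in all libraries, and the region at its start (chr6:159968690-159969328) did not pass the test in any comparison. The strongest region of the axis lay in an intron 132.5 kb from the start (chr6:160101270-160101973), at 266, 219 and 233 tags in V-K562 cells, 321, 277 and 270 in B-K562 cells and 235, 193 and 241 in G-K562 cells. In G-K562 cells it was below V-K562 cells (-0.45, standard error 0.11, adjusted p = 0.015) and below B-K562 cells (-0.59, standard error 0.11, adjusted p = 0.0028), while the RNA was higher. The first call was lost without replicate 2 of G-K562 cells (adjusted p = 0.0549), without scaling (-0.10, adjusted p = 0.49) and with scaling in bins of GC content (-0.32, adjusted p = 0.0555). Another intronic region, at 12.9 kb (chr6:159981894-159982240), rose in B-K562 (1.13, adjusted p = 0.042) and G-K562 cells (1.33, adjusted p = 0.025), and a region at 21.2 kb (chr6:159989855-159990486) fell in B-K562 cells (-1.13, adjusted p = 0.024). These rest on few peaks. In B-K562 cells the call at 12.9 kb was lost without any library except replicate 3 of V-K562 cells (adjusted p = 0.106 to 0.144), and the call at 21.2 kb without any except replicate 3 of B-K562 cells (adjusted p = 0.068 to 0.09). In G-K562 cells the call at 12.9 kb was lost without replicate 1 or 3 of G-K562 or replicate 1 or 2 of V-K562 cells (adjusted p = 0.0905 to 0.103).

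INSR (Entrez 3643, chr19:7112255-7294000, minus strand), the insulin receptor, fell in both BASP1 lines. Its values were 157, 174 and 180 in V-K562 cells and 60, 79 and 83 in B-K562 cells. In the other table they were 159, 177 and 184 in V-K562 cells and 132, 94 and 140 in G-K562 cells. V-K562 cells were highest and B-K562 cells lowest, with no overlap. The log2 fold changes were -1.20 in B-K562 (standard error 0.14, adjusted p = 3.3e-06, limma-trend), -0.52 in G-K562 cells (standard error 0.16, adjusted p = 0.011) and 0.68 between the BASP1 lines (standard error 0.17, adjusted p = 0.0017).

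Of the 6 regions of INSR, the region at 0.4 kb before the deposited start (chr19:7294176-7294648) covered the start of the RefSeq transcript. Its summits were 26, 30 and 35 tags in V-K562 cells, 31, 43 and 52 in B-K562 cells and 64, 51 and 83 in G-K562 cells. Every G-K562 value was above those of V-K562 cells, by 0.74 on a log2 scale (standard error 0.21, adjusted p = 0.026), although the RNA was lower. The call was lost without any of 4 libraries, replicates 1 and 3 of G-K562 and 1 and 2 of V-K562 cells (adjusted p = 0.0693 to 0.0945), and at 0.32 (adjusted p = 0.30) when libraries were scaled within bins of GC content. Of its bases 78.0% are G or C. An intronic region 134.3 kb from the start (chr19:7159490-7159938) fell in B-K562 cells, from 38, 43 and 32 tags to a single called peak of 15 tags in replicate 3 (-1.17, standard error 0.18, adjusted p = 0.0040). Every B-K562 value entered this test at the floor of 17 tags. The standard error and p-value there hold no spread between B-K562 libraries. A stronger intronic region at 96.7 kb (chr19:7197125-7197610) had 55, 61 and 76 tags in V-K562, 77, 83 and 77 in B-K562 and 133, 126 and 129 in G-K562 cells, with G-K562 cells above both others (0.68 and 0.49, adjusted p = 0.0065 and 0.015). The promoter is shown because the RNA and the accessibility at this site moved in opposite directions in G-K562 cells. The 250 bases before the RefSeq start are given 5′ to 3′ on the strand of the gene, and capitals mark GCGNGGGNG, letters shared by sites of WT1 and EGR1, and GGGCGG, the GC box of SP1, on either strand.

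INSR promoter (chr19:7294415-7294664, minus strand, GRCh38.p14): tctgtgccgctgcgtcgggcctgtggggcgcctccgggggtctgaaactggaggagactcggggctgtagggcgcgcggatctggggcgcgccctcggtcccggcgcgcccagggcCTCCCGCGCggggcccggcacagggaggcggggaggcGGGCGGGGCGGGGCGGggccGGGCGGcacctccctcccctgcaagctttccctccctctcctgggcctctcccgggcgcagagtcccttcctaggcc

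**Figure D3:**
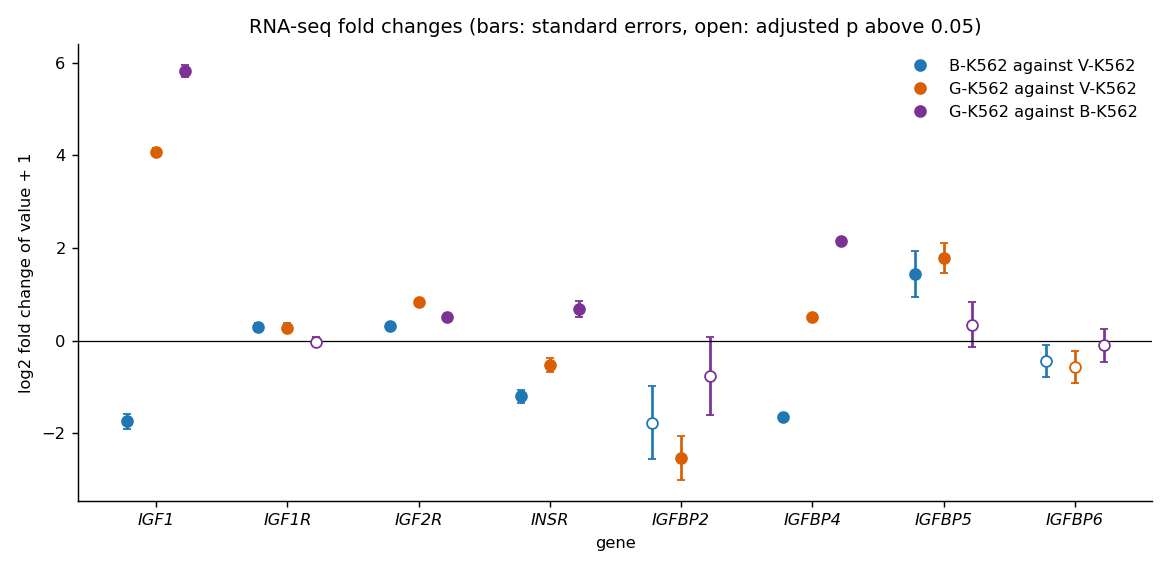
Log2 fold change of value + 1 for the 8 genes tested in each of the 3 comparisons, with bars of 1 standard error and open points for an adjusted p above 0.05. IGF1 and IGFBP4 lie below 0 in B-K562 cells and above 0 in G-K562 cells, and IGF1R, IGF2R, INSR and IGFBP5 have the same sign in both. IGFBP2 and IGFBP6 lie below 0 in both as well, with open points for IGFBP2 in B-K562 cells and for IGFBP6 in both.

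Among the binding proteins, IGFBP4 (Entrez 3487, chr17:40443424-40457730, plus strand), which binds IGF1 and IGF2 and is cut by PAPPA, had by far the highest values. They were 4701, 4716 and 4704 in V-K562 cells and 1501, 1465 and 1517 in B-K562 cells. The other table gave 4773, 4789 and 4799 in V-K562 cells and 7228, 6355 and 6749 in G-K562 cells. As for IGF1, B-K562 cells were lowest and G-K562 cells highest, with no overlap. The mean was 3.15-fold lower in B-K562 cells (1494 ± 26.6 against 4707 ± 7.94, SD, n = 3 libraries each), and 1.42-fold higher in G-K562 cells (6777 ± 437.2 against 4787 ± 13.1, SD, n = 3 each). The log2 fold changes were -1.65 (standard error 0.04, adjusted p = 3.8e-12), 0.50 (standard error 0.06, adjusted p = 1.6e-05) and, between the BASP1 lines, 2.15 (standard error 0.05, adjusted p = 1.4e-13, all limma-trend).

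None of the 3 regions of IGFBP4 passed the test in any comparison. The region over its start (chr17:40442796-40444055) had summits of 36, 39 and 39 tags in V-K562 cells, 38, 51 and 36 in B-K562 cells and 47, 76 and 67 in G-K562 cells. The V-K562 and B-K562 libraries overlapped, while all G-K562 values were higher. The log2 fold changes were -0.03 (standard error 0.21, adjusted p = 0.92) in B-K562 cells and 0.36 (standard error 0.21, adjusted p = 0.21) in G-K562 cells. The value in G-K562 cells was 0.69 with an adjusted p of 0.026 without scaling between libraries, and -0.01 with scaling within bins of GC content. The promoter is shown as the site where a change of RNA came without a called change of accessibility in B-K562 cells. Capitals mark the motifs given for INSR and TATAAA, the TATA box. GCGNGGGNG and GGGCGG can share letters.

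IGFBP4 promoter (chr17:40443200-40443449, plus strand, GRCh38.p14): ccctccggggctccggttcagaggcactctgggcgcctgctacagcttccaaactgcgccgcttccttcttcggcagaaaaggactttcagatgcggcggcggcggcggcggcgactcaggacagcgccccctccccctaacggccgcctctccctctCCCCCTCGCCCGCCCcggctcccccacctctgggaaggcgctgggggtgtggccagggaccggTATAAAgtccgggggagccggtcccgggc

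IGFBP2 (Entrez 3485, chr2:216633404-216664436, plus strand), a binding protein with a preference for IGF2, had low values that 1 library set in B-K562 cells. They were 24, 25 and 25 in V-K562 cells and 46, 2 and 2 in B-K562 cells. Beside G-K562 cells they were 25 in each V-K562 library and 8, 4 and 1 in the G-K562 libraries. All G-K562 libraries were below V-K562 cells (log2 fold change -2.54 by limma-trend, standard error 0.48, adjusted p = 0.00059). In that comparison the gene passed the filter only through the V-K562 libraries, where it was high, so the call is a description only. It was not tested where at least 10 was required in every library. In B-K562 cells replicate 1 was above and the others were below the V-K562 libraries, at -1.77 (standard error 0.78, adjusted p = 0.054). Without that library the value was -3.10 (adjusted p = 6.7e-06). Of its 4 regions, the intronic region nearest to the start, at 3.9 kb (chr2:216637087-216637484), had 40, 43 and 48 tags in V-K562 cells, 17, 41 and 20 in B-K562 cells and 18 and 27 in replicates 2 and 3 of G-K562 cells. It was lower in G-K562 cells (-1.33, standard error 0.19, adjusted p = 0.0016). So was a region just past the 3′ end (chr2:216664614-216665030), at -1.02 (standard error 0.22, adjusted p = 0.0085). An intronic region at 28.4 kb (chr2:216661653-216661995) fell in B-K562 cells from 45, 34 and 38 tags to a single called peak of 23 (-1.11, standard error 0.20, adjusted p = 0.0074). Replicates 2 and 3 of B-K562 cells entered that test at the floor of 17 tags, with no spread between them.

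IGFBP5 (Entrez 3488, chr2:216672105-216695549, minus strand), a binding protein found in the extracellular matrix, rose in both BASP1 lines. Its values were 24, 20 and 57 in V-K562 cells and 227, 42 and 62 in B-K562 cells. In the other table they were 25, 20 and 59 in V-K562 cells and 94, 130 and 105 in G-K562 cells. The G-K562 libraries were all above V-K562 cells (log2 fold change 1.78, standard error 0.32, adjusted p = 0.00047), whereas B-K562 and V-K562 libraries overlapped. The rise in B-K562 cells, 1.45 (standard error 0.50, adjusted p = 0.017, limma-trend), was 0.74 (adjusted p = 0.097) without replicate 1, and also missed the threshold without replicate 1 (adjusted p = 0.0555) or 2 (adjusted p = 0.123) of V-K562 cells. G-K562 and B-K562 cells differed by 0.34 (adjusted p = 0.54), and by 1.05 (adjusted p = 0.017) without that B-K562 library. None of the 6 regions of IGFBP5 passed the test in either BASP1 line against V-K562 cells.

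IGFBP3 (Entrez 3486, chr7:45912245-45921272, minus strand), the main carrier of IGF1 in serum, was at 72, 3 and 3 in V-K562 cells and 13, 0 and 0 in B-K562 cells. In the other table it was at 73, 3 and 3 in V-K562 cells and at 0, 0 and 1 in G-K562 cells. Replicate 1 of each of the first 2 lines held nearly all of it, so the gene was not tested. Its single region had peaks of 22 tags in replicate 3 of V-K562 cells and of 25 and 18 tags in replicates 1 and 3 of B-K562 cells. IGFBP6 (Entrez 3489, chr12:53097652-53102344, plus strand), which prefers IGF2, was at 13, 13 and 20 in V-K562 cells, 12, 15 and 7 in B-K562 cells and 7, 10 and 15 in G-K562 cells. The lines overlapped, with log2 fold changes of -0.44 (standard error 0.34, adjusted p = 0.26) and -0.57 (standard error 0.34, adjusted p = 0.16). An intronic region 1.9 kb from its start (chr12:53099279-53099722), also within 5 kb of SOAT2, was higher in both BASP1 lines. Its summits were 54, 60 and 59 tags in V-K562 cells, 100, 91 and 89 in B-K562 cells and 99, 87 and 95 in G-K562 cells (0.54, adjusted p = 0.015, and 0.35, adjusted p = 0.044). The first call was lost without replicate 1 of B-K562 cells (adjusted p = 0.0505), and the second without any library of either line (adjusted p = 0.0565 to 0.0989).

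The order of the levels of the genes was compared per kb of exon length, as a description. In V-K562 cells IGFBP4 led at a level of 2141 ± 5.87 per kb (SD, n = 3), followed by IGF2R at 801.4 ± 23.4, IGF1 at 32.9 ± 2.44 and IGF1R at 24.7 ± 0.66. INSR, IGFBP2 and IGFBP6 followed at 17.6 ± 1.31, 17.5 and 16.6 ± 4.51 per kb, and their libraries overlapped. IGFBP3, IGFBP5 and IGF2 were last, with the level of IGFBP3 set by replicate 1. In B-K562 cells IGF2R was above IGFBP4, at 986.9 ± 27.3 against 668.3 ± 11.9 per kb, and IGF1 was seventh at 9.73 ± 2.40, where it overlapped with IGFBP6 and INSR. IGFBP2 and IGFBP5 ranked above IGF1 there through replicate 1, at 32.2 and 36.4 per kb against 8.96. In replicates 2 and 3 IGF1 was at 7.81 and 12.4, above IGFBP2 at 1.40 in each and IGFBP5 at 6.73 and 9.94. In G-K562 cells the order was IGFBP4 at 3031 ± 195.5, IGF2R at 1433 ± 154.1, IGF1 at 559.2 ± 43.9 and IGF1R at 29.96 ± 3.02 per kb. The level of IGF1 was thus above that of its receptor in V-K562 and G-K562 cells, and below it in B-K562 cells, in every library.

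Of the 61 regions at the 10 genes, 13 had a peak in all 9 libraries. Against V-K562 cells, 8 of 41 regions tested were lower and 3 were higher in B-K562 cells, beside 16.5% lower and 8.69% higher of all 52204 regions tested. In G-K562 cells 4 of 41 were lower and 5 were higher, beside 25.8% and 16.2% of 54213 regions. Between the BASP1 lines 5 of 46 were lower and 5 were higher in G-K562 cells, beside 15.5% and 12.4% of 60181 regions. Calls of at least 2-fold were made for 8, 3 and 3 regions, and for 7.65%, 16.0% and 12.9% of all regions tested. In all, 10 regions passed this limit in some comparison, of which 3 were in IGF1 and 1 was the nearest to a start. The median log2 fold change of the regions tested was 0.03, -0.13 and 0.12 in the 3 comparisons, and over all regions -0.06, -0.09 and 0.00. Without scaling between libraries the medians over all regions were 0.06, 0.19 and 0.12, and the region counts moved with them. In G-K562 against V-K562 cells 14 regions were then higher. Without replicate 1 of B-K562 cells 4 regions were lower and 1 was higher against V-K562 cells, and between the BASP1 lines 2 were lower and 3 were higher. Without replicate 1 of V-K562 cells 5 regions were lower in B-K562 cells and 3 were higher in G-K562 cells.

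**Figure D4:**
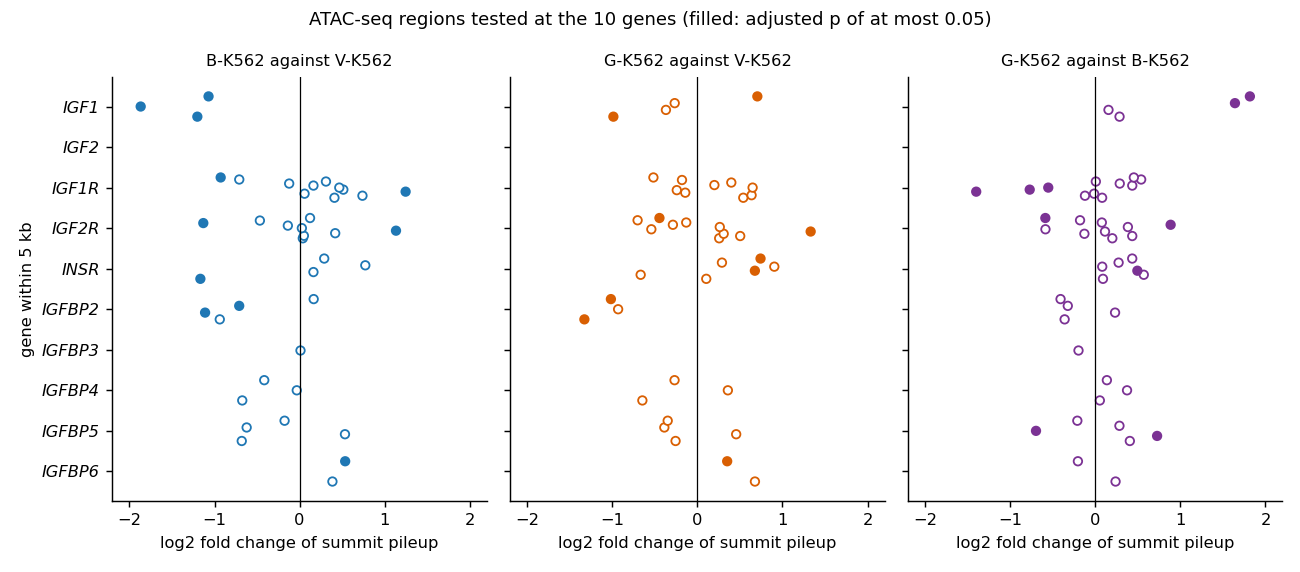
Log2 fold change of the summit pileup for every region tested within 5 kb of each gene, in the 3 comparisons, with filled points for an adjusted p of at most 0.05. In B-K562 cells the tested regions of IGF1 lie below -1, and no region of IGFBP4 is filled in any comparison.

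RefSeq promoters were at hand for 9 of the 10 genes, 12 windows of 300 bases from 250 before to 50 after a start (GRCh38.p14), and for IGF2 none. GGGCGG occurred in 8 of the 12 windows, beside 45.0% of all 35116 promoters. GCGNGGGNG occurred in 5 of 12, beside 18.8% of all promoters, in IGF1R, IGF2R, INSR, IGFBP2 and IGFBP4. TATAAA occurred in 1 of 12, that of IGFBP4, beside 11.5%, and CCAAT in 1 of 12, beside 34.6%. Neither window of IGF1 held any of the 4 motifs, and no peak was called over either. A match of letters is a description and does not show that a factor binds.

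The other genes of the pathway were described by role from a list of 51 genes. With wtBASP1, 14 of 40 genes tested were lower and 15 were higher, with -0.04 as the median log2 fold change. With BASP1-G2A, 14 of 41 were lower and 17 were higher, with a median of 0.10. Between the BASP1 lines 15 of 41 were lower and 19 were higher in G-K562 cells, with a median of 0.01. These counts are to be read beside the shares of all genes given above. At least 2-fold changes numbered 8, 11 and 9.

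Of the 6 genes around the ligands and their receptors only H19 and INSRR were tested, and INS, INS-IGF2 and AIRN were at 0 in all libraries. H19, a non-coding RNA next to IGF2 that is imprinted with it, was at 1131, 324 and 288 in V-K562 cells and 720, 186 and 141 in B-K562 cells. In G-K562 cells it was at 10611, 13821 and 10998, above V-K562 cells by 4.61 in log2 units (standard error 0.39, adjusted p = 1.0e-06, limma-trend). Replicate 1 of V-K562 and of B-K562 cells was the highest of its line, and all G-K562 libraries were above both. INSRR, a receptor related to INSR, was lower in B-K562 cells (-0.64, standard error 0.21, adjusted p = 0.015). Of the other binding proteins, IGFBP7, which binds insulin-like growth factors weakly, was at 19, 13 and 12 in G-K562 cells against 7, 3 and 0 in V-K562 cells. It passed the filter only through the G-K562 libraries, where it was high. Its call as higher (2.28, standard error 0.64, adjusted p = 0.0081, limma-trend) is therefore a description only. IGFBP1 was at 0 throughout.

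Of the 5 proteases that cut binding proteins and their inhibitors, 4 were tested, and all 4 were lower in B-K562 cells, beside 37.2% of all genes. In G-K562 cells 2 were lower and 2 higher than in V-K562 cells, beside 33.3% and 33.5%. Between the BASP1 lines 1 was lower and 2 were higher in G-K562 cells, beside 40.5% and 38.1%. PAPPA, the protease of IGFBP4, was at 512, 558 and 651 in V-K562 cells and at 65, 89 and 94 in B-K562 cells. In G-K562 cells it was at 50, 45 and 48 against 520, 567 and 664. It fell in both BASP1 lines, with log2 fold changes of -2.79 (standard error 0.14, adjusted p = 6.9e-10) and -3.58 (standard error 0.12, adjusted p = 9.5e-10, limma-trend). PAPPA2, the protease of IGFBP5, went in opposite directions, from 38, 33 and 39 in V-K562 cells to 2, 11 and 16 in B-K562 cells (-2.15, adjusted p = 0.0013) and to 139, 86 and 111 in G-K562 cells (1.54, adjusted p = 2.5e-05). So did STC2, a stanniocalcin that inhibits PAPPA, from 981, 847 and 794 to 339, 351 and 368 in B-K562 cells (-1.30, adjusted p = 6.6e-09) and to 2043, 2015 and 2310 in G-K562 cells (1.26, adjusted p = 2.0e-07). PAPPA2 differed by 3.69 (adjusted p = 4.5e-06) and STC2 by 2.56 (adjusted p = 2.2e-12) between the BASP1 lines. STC1, named after its values were seen, fell in both lines (-1.14 and -1.17, adjusted p = 5.0e-05 and 0.00043). IGF1, IGFBP4, PAPPA2 and STC2 each fell in B-K562 and rose in G-K562 cells, and PAPPA was lower in both. These genes are named together by their outcome, and the share of all genes with either pattern was not computed.

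Of the 5 regulators of IGF2, all tested, 1 was lower and 2 were higher in B-K562 cells, beside 37.2% and 38.6% of all genes. In G-K562 cells 2 were lower and 2 higher, beside 33.3% and 33.5%. HMGA2, a chromatin protein that acts upstream of IGF2, fell from 158, 133 and 121 to 47, 26 and 38 in B-K562 cells (-1.89, adjusted p = 1.2e-06) and to 51, 34 and 36 in G-K562 cells (-1.78, adjusted p = 5.6e-06). IGF2BP1, which binds IGF2 mRNA, rose in both lines (0.77 and 0.32, adjusted p = 3.3e-08 and 0.0046).

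Of the 11 adaptors and phosphatases 9 were tested, with 1 lower and 5 higher in B-K562 cells and 4 lower and 2 higher in G-K562 cells. The shares of all genes were 37.2% lower and 38.6% higher in B-K562 cells, and 33.3% and 33.5% in G-K562 cells. IRS1, the adaptor that couples both receptors to PI3K, rose from 16, 8 and 4 to 36, 19 and 24 in B-K562 cells (1.53, standard error 0.41, adjusted p = 0.0041). In G-K562 cells it was at 170, 143 and 207 (4.15, standard error 0.33, adjusted p = 5.9e-07). The lines did not overlap, and G-K562 cells were above B-K562 cells by 2.68 (adjusted p = 3.9e-06). GAB1, a docking protein, rose in B-K562 cells (477, 470 and 451 to 1117, 1097 and 1120, 1.25, adjusted p = 4.8e-10) and fell in G-K562 cells (319, 392 and 364, -0.41, adjusted p = 0.0023). PTPN1, a phosphatase of the insulin receptor, moved the same way (0.42 and -0.30, adjusted p = 2.0e-06 and 0.00048).

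All 20 genes from PI3K to FOXO and mTOR were tested, with 7 lower and 8 higher in B-K562 cells, beside 37.2% and 38.6% of all genes. In G-K562 cells 6 were lower and 9 higher, beside 33.3% and 33.5%. Between the BASP1 lines 8 were lower and 10 higher in G-K562 cells, beside 40.5% and 38.1%. PIK3R2, a regulatory subunit of PI3K, rose in B-K562 cells from 1589, 1656 and 1472 to 3264, 3429 and 3298 (1.08, adjusted p = 7.4e-10). RPTOR, the subunit that defines mTOR complex 1, rose as well (0.92, adjusted p = 2.6e-08). FOXO1, a transcription factor that AKT keeps out of the nucleus, was at 57, 61 and 56 in V-K562 cells, 32, 29 and 29 in B-K562 cells and 304, 291 and 247 in G-K562 cells. It fell in B-K562 cells (-0.93, adjusted p = 0.00023) and rose in G-K562 cells (2.23, standard error 0.13, adjusted p = 4.6e-08), with no overlap between the lines. FOXO4 fell in G-K562 cells (-1.30, adjusted p = 8.4e-08) and AKT1 rose there, from 4470, 4383 and 4214 to 9224, 8821 and 8704 (1.03, adjusted p = 2.3e-08). PIK3R3 differed between the BASP1 lines, lower with G2A (-1.14, adjusted p = 2.6e-08).

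**Figure D5:**
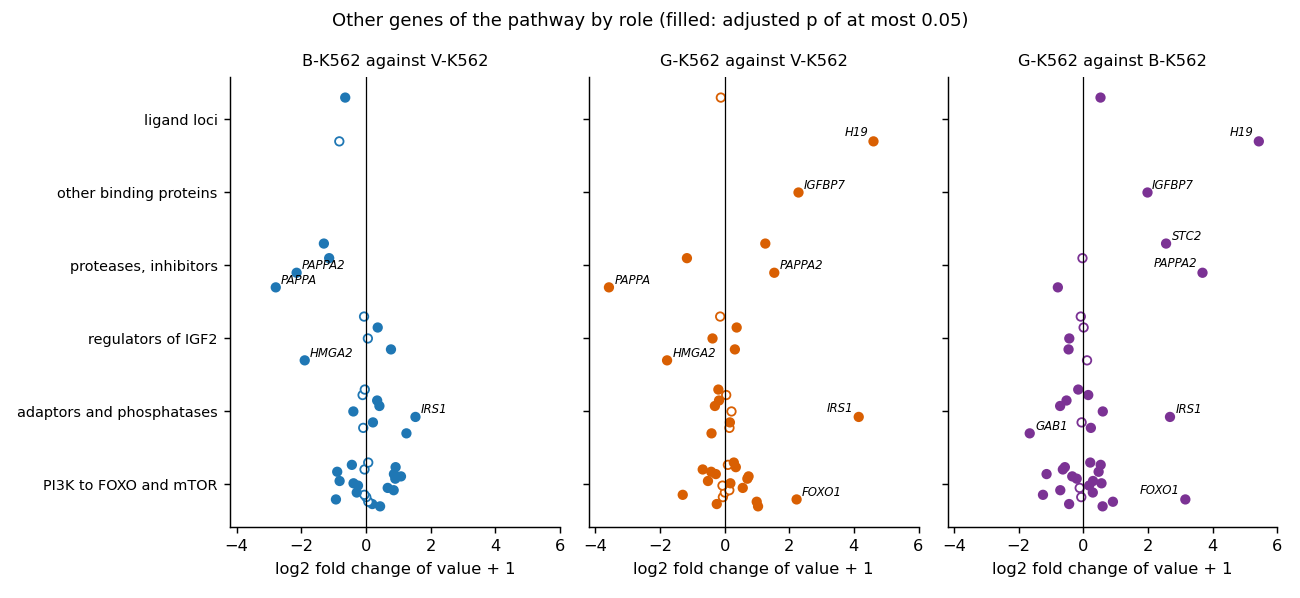
Log2 fold change of value + 1 of the other pathway genes tested, by role, in the 3 comparisons, with filled points for an adjusted p of at most 0.05 and names at a size of 1.5 or more. H19, IRS1 and FOXO1 lie above 2 in both comparisons of G-K562 cells, and PAPPA is the lowest point in both comparisons with V-K562 cells.

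For the 5 genes of the axis with a call of at least 2-fold, the most similar patterns over the 9 libraries were looked up among 15521 genes by Pearson's r of log2(value + 1). The points share their line in groups of 3, so r mostly reflects 3 line means and is given as a description. CASP4, an inflammatory caspase, was closest to IGF1 (r = 0.9992), with means of 76.7 in V-K562, 23.1 in B-K562 and 1199 in G-K562 cells. FCGR1B, an Fc receptor gene, followed (r = 0.9976). DNASE2, a lysosomal nuclease, and FCGR2A, another Fc receptor gene, were closest to IGFBP4 (r = 0.9985 each). FCGR2A had means of 6145, 1525 and 10553. ATP7A, a copper transporter, and PAX5 were closest to INSR (r = 0.9873 and 0.9839). IGFBP2 and IGFBP5, whose values turn on replicate 1 of B-K562 cells, were closest to UCHL1 (r = 0.9778) and FBXL12 (r = 0.9498).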

How the data were processed

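RNA-seq and ATAC-seq libraries of the 3 lines (3 replicates each) were analysed from the processed tables. The RNA-seq signal values were deposited by the authors as DESeq2 size-factor-normalised counts, rounded, after mapping to GRCh38 with STAR, removal of duplicates and counting on RefSeq genes with Subread. The fold-change and p-value columns of the tables hold the authors' own comparisons and were not used. The ATAC-seq pileup signal was deposited by the authors per MACS2 peak and library, after sampling to equal tags. The other column read, the exon length, is the authors' value.

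The members and gene lists were chosen with earlier results of these data known. All genes were fitted with limma 3.58.1 under R 4.3.3 (trend on log2(value + 1), Benjamini-Hochberg), 6 libraries per comparison with V-K562 cells. For G-K562 against B-K562 cells all 9 libraries were fitted, with B-K562 values multiplied by 1.017, the mean ratio of the shared V-K562 columns. Peaks were merged into 85549 regions (mean 425.9 bp), scaled by a trimmed mean (30% of ratios, 5% of levels) and floored at 17 tags, the 5th percentile, also where no peak was called, and those with a peak in at least 3 libraries were tested. Scripts were tested on simulated data. All 10 members are named, and of the other pathway genes the at most 3 largest changes per role and comparison. Regions named are those nearest to a start, those of at least 2-fold and, after the values were seen, others of interest. A region of IGF1 that met this rule is counted among the regions but not reported here. p-values measure the spread between replicate cultures of single lines, except where ATAC-seq values lie at the floor and have no spread. Pileups give no counts, so depth limits were not computed.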

Additional observations from a re-analysis of the deposited data

Results flagged for a closer look

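The response of IGF1 differed between the BASP1 lines, lower than V-K562 cells with wtBASP1 and higher with BASP1-G2A, in all libraries. The test of the difference itself, G-K562 against B-K562 cells by limma-trend, gave 5.83 on the log2 scale (adjusted p = 1.1e-13).

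IGFBP4 differed between them in the same way, by 2.15 on the log2 scale (adjusted p = 1.4e-13, limma-trend).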

How the results depend on the processing

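Of the alternatives for single genes and regions 957 kept direction and side of the threshold, 67 lost a call, 26 gained one and 36 changed sign. Counts stayed within 1.5 times in 234 cases and moved in 26, and the cause was not tested. IGF1, IGF2R, INSR and IGFBP4 RNA kept all calls. In B-K562 against V-K562 cells the IGFBP5 call was also lost with no filter (adjusted p = 0.0748, limma) and no trend (0.114).

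With the replicate number as a block, IGFBP2 in B-K562 cells was called (-1.77, adjusted p = 0.0116), so 4 genes of the axis were lower and 3 higher. The regions at IGFBP2 (216664614, B-K562, adjusted p = 0.0685), IGF2R (159989855, between the BASP1 lines, adjusted p = 0.0523) and IGFBP6 (53099279, G-K562, adjusted p = 0.0919) lost their calls, and no other call changed among the 10 genes and the regions fitted with the block by name. The counts of pathway genes lower in B-K562 cells went to 16 under the block. The replicate numbers were not used to pair the samples in the main fits. Correlations of deviations between libraries of equal number ran from -0.097 to 0.145, with the highest in replicate 3 of G-K562 against V-K562 RNA.

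Regions are given by gene and start. Without scaling, in G-K562 against V-K562 cells the values changed sign to 0.072 (IGF1 102441108), 0.122 (IGF1R 98776864) and 0.049 (IGF2R 159989855), in B-K562 cells to 0.114 (IGFBP4 40442796), and between the BASP1 lines to 0.086 (IGF1R 98648249) and 0.005 (IGFBP6 53099279). Scaling within bins of GC content, chosen after seeing the data, gave 0.197, 0.077 and 0.183 for the same first 3, -0.008 for IGFBP4 40442796 and -0.167 for IGF2R 159968690 in G-K562 cells, and -0.268 for the latter and -0.014 for INSR 7294176 in B-K562 cells. The mean pileup gave -0.048 for IGF2R 159968690 in B-K562 cells. Trimmed-mean rescaling gave 0.012 for IGF1R RNA between the BASP1 lines. None of these passed the test.

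In B-K562 cells 6 regions were higher without scaling and 5 with GC bins, where 5 were lower, and 3 were lower with a peak in every library. Between the BASP1 lines 8 were higher with a floor of 10 tags and 8 without scaling, and with a peak in every library 1 was higher and 3 were lower. In G-K562 cells 14 were higher without scaling. With at least 10 in every library 1 gene of the axis was lower in G-K562 cells.

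With 1 library left out, 1 to 4 regions were higher and 4 to 7 lower in B-K562 cells, 2 to 5 higher in G-K562 cells, and 3 to 5 higher and 2 to 6 lower between the BASP1 lines. Values ranged in B-K562 cells from -0.103 to 0.227 (IGF2R 159968690), -0.132 to 0.151 (IGFBP3 45917632) and -0.19 to 0.055 (IGFBP4 40442796), and in G-K562 cells from -0.343 to 0.096 (IGF1R 98776864). Between the BASP1 lines regions ranged from -0.247 to 0.124 (IGF1R 98648249), -0.028 to 0.285 (IGF2R 159981894), -0.612 to 0.012 (IGFBP2 216637087), -0.136 to 0.415 (IGFBP2 216661653) and -0.104 to 0.469 (IGFBP6 53097892), and RNA from -0.095 to 0.05 (IGF1R), -1.426 to 0.563 (IGFBP2), -0.152 to 1.051 (IGFBP5) and -0.386 to 0.141 (IGFBP6).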
